A study of Mus musculus with 28 samples.

Results

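The transcripts of 49 mouse genes of the DNA replication machinery were followed in sorted male germ cells over 120 h after retinoic acid. The members were taken by name, as 49 gene symbols of replication factors from origin licensing to histone supply, out of 43253 gene symbols used from the count tables. All 49 were present in both tables, and all 49 passed the expression filter that kept 17519 genes for testing. Levels are given as CPM, the reads of a gene per 1000000 reads counted in that library, and differences as log2 fold changes ± standard error.

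The cells came from testes of Stra8 wild-type (WT) or Stra8 knockout (KO) mice of mixed background, C57BL/6 by 129s4/SvJae. All mice, the 0 h controls included, received WIN 18,446, an inhibitor of retinoic acid synthesis, for 7 days, and all carried the PIWIL2-eGFP reporter used for sorting. Mice were collected at 0 h with no retinoic acid, or 12, 18, 48, 72, 96 or 120 h after an injection of it, which gave 14 groups of 2 polyA RNA libraries (28 in all). The labels do not give the age of the mice, the design of the Stra8 allele or whether replicates were separate animals, so p-values measure only the spread between these libraries.

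DNA replication starts at origins bound by the origin recognition complex, where CDC6 and CDT1 load the MCM2-7 helicase during G1. The kinases CDC7-DBF4 and cyclin E-CDK2 then allow CDC45 and the GINS complex to join the helicase, and the polymerases, the PCNA clamp with its RFC loader, and the strand-joining enzymes copy the DNA, while ribonucleotide reductase supplies nucleotides and CAF-1 deposits histones. In the testis, retinoic acid drives undifferentiated spermatogonia into a series of mitotic divisions that ends in premeiotic S phase, and STRA8 is induced by retinoic acid and needed for normal meiotic initiation. Transcription of many replication genes is known to depend on E2F factors, which bind sites near the start of these genes.

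The sequences before the start of 8 members are shown. Mcm6, Mcm5, Cdc6 and Pola1 are the 4 of 39 members with such a window whose window held an E2F match, and were chosen for it. The other windows held none: Mcm2 and Pola2 are shown as genes that rose at 12 h, Rrm2 had the highest rise of the 49 in WT at 120 h, and Chaf1b fell in WT at 120 h, as did Pola1. They are from RefSeq on build GRCm38.p6, run 5′ to 3′ on the gene's strand, end at or before the base preceding the RefSeq start, and leave out bases inside annotated exons. Capitals mark matches to the E2F site (TTTCCCGC, TTTGGCGC, TTTGCCGC or TTTCGCGC) or the CCAAT box (CCAAT), both searched on both strands.
Mcm6, chr1:128359706-128359955, minus strand: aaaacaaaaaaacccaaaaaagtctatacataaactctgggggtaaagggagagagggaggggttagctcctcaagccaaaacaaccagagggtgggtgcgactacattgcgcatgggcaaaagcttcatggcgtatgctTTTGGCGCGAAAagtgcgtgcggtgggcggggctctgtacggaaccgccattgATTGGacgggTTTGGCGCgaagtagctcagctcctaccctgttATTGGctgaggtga
Mcm5, chr8:75109259-75109508, plus strand: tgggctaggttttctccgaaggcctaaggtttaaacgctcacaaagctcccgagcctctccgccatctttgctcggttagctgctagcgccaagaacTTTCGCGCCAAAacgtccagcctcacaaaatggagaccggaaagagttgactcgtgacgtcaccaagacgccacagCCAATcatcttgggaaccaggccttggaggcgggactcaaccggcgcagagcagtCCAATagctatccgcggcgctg
Cdc6, chr11:98907982-98908150, plus strand: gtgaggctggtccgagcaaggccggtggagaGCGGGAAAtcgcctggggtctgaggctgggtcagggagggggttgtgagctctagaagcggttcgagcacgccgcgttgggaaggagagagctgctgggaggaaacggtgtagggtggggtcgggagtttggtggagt
Pola1, chrX:93632156-93632405, minus strand: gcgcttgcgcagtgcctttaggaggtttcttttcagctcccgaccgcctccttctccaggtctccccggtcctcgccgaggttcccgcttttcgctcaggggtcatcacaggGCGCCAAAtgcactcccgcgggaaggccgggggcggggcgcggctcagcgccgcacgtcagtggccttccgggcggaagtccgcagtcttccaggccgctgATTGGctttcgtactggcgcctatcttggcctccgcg
Mcm2, chr6:88898781-88899030, minus strand: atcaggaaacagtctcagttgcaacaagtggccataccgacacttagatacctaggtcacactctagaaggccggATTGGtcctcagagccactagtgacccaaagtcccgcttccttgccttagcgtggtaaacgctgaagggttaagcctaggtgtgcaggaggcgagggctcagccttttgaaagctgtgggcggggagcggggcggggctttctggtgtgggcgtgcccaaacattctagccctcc
Pola2, chr19:5964207-5964456, minus strand: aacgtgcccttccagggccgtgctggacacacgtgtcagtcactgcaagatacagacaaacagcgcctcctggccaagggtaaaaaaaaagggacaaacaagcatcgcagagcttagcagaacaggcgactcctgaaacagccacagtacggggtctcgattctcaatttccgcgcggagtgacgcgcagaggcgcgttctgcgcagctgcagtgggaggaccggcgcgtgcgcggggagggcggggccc
Rrm2, chr12:24708004-24708240, plus strand: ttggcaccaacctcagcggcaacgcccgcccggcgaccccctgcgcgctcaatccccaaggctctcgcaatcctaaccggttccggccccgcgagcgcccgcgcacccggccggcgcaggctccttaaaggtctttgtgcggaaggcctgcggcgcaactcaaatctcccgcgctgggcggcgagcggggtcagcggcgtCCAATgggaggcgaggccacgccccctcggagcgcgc
Chaf1b, chr16:93883651-93883900, plus strand: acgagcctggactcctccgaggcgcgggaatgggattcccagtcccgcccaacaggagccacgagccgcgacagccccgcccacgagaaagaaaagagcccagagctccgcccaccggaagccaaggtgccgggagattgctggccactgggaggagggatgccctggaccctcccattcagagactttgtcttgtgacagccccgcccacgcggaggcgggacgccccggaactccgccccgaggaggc

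These windows held 3 E2F matches in Mcm6, of which 2 overlap, 2 overlapping ones in Mcm5, and 1 each in Cdc6 and Pola1, whereas Mcm2 and Rrm2 held 1 CCAAT box each and Pola2 and Chaf1b held neither motif. The windows of Orc1 (86 bases) and Cdc45 (144 bases), which also rose at 12 h, held no E2F match. These windows leave out exon bases, and the longer promoter of Orc1, of the 300-base kind described below, did hold 1 match. The Cdc6 window lies inside the annotated gene, which begins at position 98907801 of chromosome 11 in GENCODE, between its exons. Promoters of 300 bases (250 before to 50 after the start) were found for 40 of the 49 members. An E2F match was present in 14 of the 40 members (35.0%), against 2.605% of all 27025 genes of the promoter table and 4.505% of the 11364 of them that were tested here. Over the 250 bases before the start alone, 8 of 40 members held one, against 3.74% of the tested genes. A CCAAT box was present in 57.5% of members and 42.881% of the tested genes, and the Sp1 motif GGGCGG in 77.5% and 67.344%. The CHR motif TTTGAA, found in many genes of mitosis, was present in 17.5% of members and 14.053% of the tested genes. CNCCTCAG was present in 10.0% and 10.912%. The direct repeat bound by retinoic acid receptors, with 5 bases between its copies, was in none of the 40 members. It was also in none of the 11364 tested genes and in 0.011% of all 27025 genes. A pattern this rare cannot tell whether the members lack such sites. A match is a description of these letters and not a measured binding site.

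Total counts ran from 5752475 to 10135820 in the WT libraries and from 913055 to 9507928 in the KO libraries. Replicate 2 of KO at 72, 96 and 120 h was shallow, with 1078460, 913055 and 1030025 reads. For these 3 groups the authors also deposited a CPM column that matched no count column, from which totals of 4479729, 4190650 and 4122223 reads were recovered. Stra8 itself read 713 and 1043 CPM at 12 h in WT and 30.7 and 25.9 CPM in KO, and no KO library was above 30.7 CPM other than replicate 1 at 48 h, which had 62.2 CPM against 2.10 CPM in replicate 2. Whether the reads in KO come from outside the disrupted part of the gene could not be told from counts per gene. The germ cell markers Ddx4, Dazl and Piwil2 were at 296 CPM or above in all 28 libraries. Dppa4, the lowest of the 7 germ cell markers, was at 10.7 CPM or above. The Leydig cell marker Insl3 was at 0 in all 28, but it was the only marker to be so. The Leydig marker Star was at 3.99 CPM or above, and the stromal marker Col1a1 ran from 47.4 to 403 CPM. The Sertoli cell markers summed to as much as 223 CPM, in KO at 72 h. Reads of markers of other cell types were thus present in every library. The share of mitochondrial genes separates the WT replicates, at 1.98 to 3.06% of counts for replicate 1 (7 libraries) and 3.21 to 8.56% for the other 21 libraries.

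Together the 49 genes took 4660 and 5660 CPM at 0 h in WT and 8447 and 9136 CPM at 12 h. Later WT libraries ranged from 7345 CPM at 72 h to 8801 CPM at 120 h, so every WT library with retinoic acid was above both at 0 h. In KO the sum was 4937 and 5007 CPM at 0 h and 8275 and 7784 CPM at 12 h. KO libraries then held 6925 and 7007 CPM (18 h), 7961 and 7565 (48 h), 6607 and 7143 (72 h), 6334 and 8514 (96 h), and 5874 and 7090 (120 h). At 120 h both KO libraries lay below both WT libraries, 8801 and 8280 CPM. In these bulk samples fewer replicating cells and less of these RNAs per cell cannot be told apart.

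**Figure D1:**
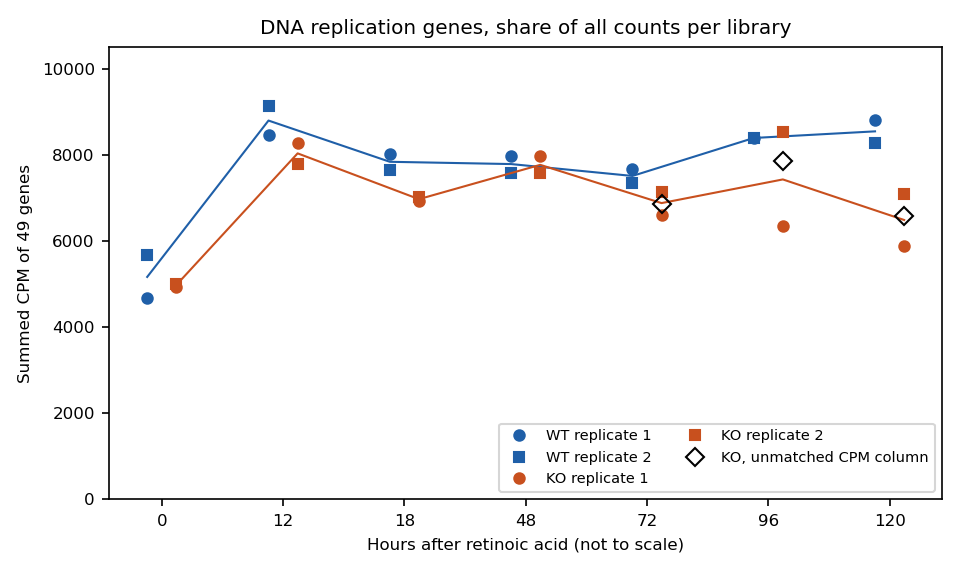
Summed CPM of the 49 genes (y axis, from 0) in each library by hours after retinoic acid (x axis, not to scale), with circles for replicate 1, squares for replicate 2 and lines through the group means. The WT libraries sit at 4660 and 5660 CPM at 0 h and at 7345 CPM or above later; open diamonds are the KO columns recovered from CPM, at 6864, 7847 and 6582 CPM.

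At 12 h in WT, 28 members were higher than at 0 h and none was lower, where 5.36% of all tested genes were higher and 5.53% lower (adjusted p under 0.05). The median log2 fold change of the 49 was 0.74, against 0.01 over all tested genes. The higher members covered every role, with all 6 subunits of the MCM2-7 helicase, both E cyclins, 3 of 4 licensing genes, 4 of 8 activation genes and 4 of 9 polymerase subunits among them. The count was 12 when replicate 1 of WT at 0 h was left out: Orc1, Cdc6, Mcm2, Mcm4, Mcm6, Cdc45, Ccne1, Pola2, Pold3, Lig1, Wdhd1 and Rrm2.

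At each later time in WT more members were above their 0 h level than below it by the test. Higher and lower members numbered 20 and 1 at 18 h (5.07% and 6.87% of all genes) and 20 and 0 at 48 h (6.15% and 6.68%). At 72 h they numbered 22 and 0 (6.55% and 6.33%), but 1 member was lower in 7 alternative fits. Those fits were RLE scaling, DESeq2, no expression filter, either replicate block, and the shallow KO libraries left out or replaced. Higher and lower members numbered 26 and 2 at 96 h (12.6% and 14.1% of all genes) and 35 and 2 at 120 h (14.2% and 14.7%). Their median log2 fold changes were 0.59, 0.53, 0.63, 0.61 and 0.87 at these 5 times. These comparisons share the 0 h libraries, and without replicate 1 at 0 h the counts called in either direction were 4, 6, 6, 16 and 20. Without replicate 1 at 18 h the count at 18 h was 9, without either replicate at 48 h that at 48 h was 13, and without replicate 1 at 72 h that at 72 h was 11.

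Between consecutive WT times after 12 h, no member passed the edgeR test. At an unadjusted p under 0.05 there were 8 members for 18 against 12 h, 4 for 48 against 18 h, 7 for 72 against 48 h, 8 for 96 against 72 h and 6 for 120 against 96 h. At that cutoff 6.67%, 12.9%, 13.1%, 16.1% and 9.85% of all genes passed in these steps. DESeq2 called 1, 2, 0, 2 and 2 members. By the adjusted edgeR test, all genes called higher and lower in these steps were 0.0285% and 0.251%, 1.1% and 0.588%, 0.148% and 0.263%, 0.217% and 0.565%, and 0.0285% and 0.0171%. The WT replicate numbers pair the libraries, and with the number as a block within each genotype 2, 2, 2 and 1 members passed for 18 against 12, 48 against 18, 96 against 72 and 120 against 96 h. That fit called 0.788%, 3.65%, 4.06% and 0.753% of all genes in these steps, so the member counts at 48 against 18 h and 96 against 72 h are at the share of all genes. Cdc6 fell from 12 to 18 h (log2 fold change -0.81 ± 0.19, adjusted p = 0.0387), as did Chaf1b (-0.93 ± 0.21, adjusted p = 0.0272), which rose again from 18 to 48 h (0.84 ± 0.21, adjusted p = 0.019). Pold2 rose in that blocked fit from 18 to 48 h (0.65 ± 0.17, adjusted p = 0.0262) and from 72 to 96 h (0.66 ± 0.17, adjusted p = 0.0282). Pold1 rose from 72 to 96 h (0.75 ± 0.18, adjusted p = 0.0242) and Pold3 from 96 to 120 h (0.66 ± 0.16, adjusted p = 0.0491).

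In KO, 30 members were higher at 12 h than at 0 h and none was lower (4.13% and 4.44% of all genes), with a median log2 fold change of 0.81. Of the 28 members that rose in WT at 12 h and the 30 that rose in KO, 24 were the same (85.7% and 80.0%), and of all genes 448 of 939 and 724 were (47.7% and 61.9%). Later KO counts were 16 higher at 18 h (3.81% of all genes higher, 5.11% lower), 18 at 48 h (1.77% and 2.74%) and 2 at 72 h (0.348% and 0.143%). They were 9 at 96 h (1.27% and 0.479%) and 1 at 120 h (0.908% and 0.0457%), and no member was lower at any of these times. The median log2 fold changes were 0.62, 0.64, 0.47, 0.59 and 0.32, so they stayed above 0 where few members passed. The KO counts depended on single libraries: without replicate 1 at 0 h they were 12, 3, 2, 0, 0 and 0 from 12 to 120 h. At 12 h the count was 19 without replicate 2 at 0 h, 12 without replicate 1 at 12 h and 18 without replicate 2 at 12 h, and at 18 h it was 6 without either 18 h library. Without replicate 1 at 48 h, the KO library with the highest Stra8 level, the 48 h count was 3. From 72 h on, leaving out 1 library of many gave 0 to 4 members at 72 h, 0 to 10 at 96 h and 0 or 1 at 120 h. With recovered reads in place of the shallow libraries they were 8 at 72 h, 15 at 96 h and 2 at 120 h, and with the shallow libraries left out 0 at each of these times.

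At 0 h no member differed between KO and WT, nor did any other gene, at an adjusted p under 0.05. At an unadjusted p under 0.05, 4 members and 6.81% of all genes did, and DESeq2 called 0 members. At 12 h and 18 h Chaf1b was the 1 member called, higher in KO (1.08% and 3.11% of all genes were higher, 0.097% and 1.04% lower). At 48 h none was called (0.291% and 0.0171% of all genes). At an unadjusted p under 0.05, 1 member and 8.32% of all genes differed at 48 h, and DESeq2 called 0 members. At 72 h Chaf1b was higher and Orc1 and Rrm2 lower in KO (2.58% and 2.12% of all genes), and at 96 h Chaf1b was higher and Rrm2 lower (3.32% and 1.15%). Leaving out replicate 1 of WT at 72 h removed all 3 calls at 72 h, and leaving out either KO library at 72 h left 1. At 96 h the calls numbered 0 without replicate 1 of KO, 1 without replicate 1 of WT, and 4 without replicate 2 of either genotype.

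At 120 h, 21 members were lower and 1, Chaf1b, was higher in KO than in WT, where 6.88% of all genes were lower and 8.54% higher. The median log2 fold change was -0.53 over the 49 and -0.02 over all genes. The lower members were Orc1 and Cdc6, Mcm3, Mcm4 and Mcm6, Ccne2, Pola2, Prim1, Pold2, Pold3 and Pole2, Pcna, Rfc2, Rfc5 and Fen1, Wdhd1, all 3 nucleotide genes Rrm1, Rrm2 and Tyms, and Chaf1a and Slbp. None of the 8 helicase activation genes and none of the 3 RPA genes passed. DESeq2 called 27 lower, and with recovered reads in place of the shallow libraries 25 were lower. The count of lower members was 2 (Rfc5 and Rrm2) without replicate 1 of KO at 120 h, which leaves the shallow library alone in its group, and 7 without replicate 2 of WT at 120 h.

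**Figure D2:**
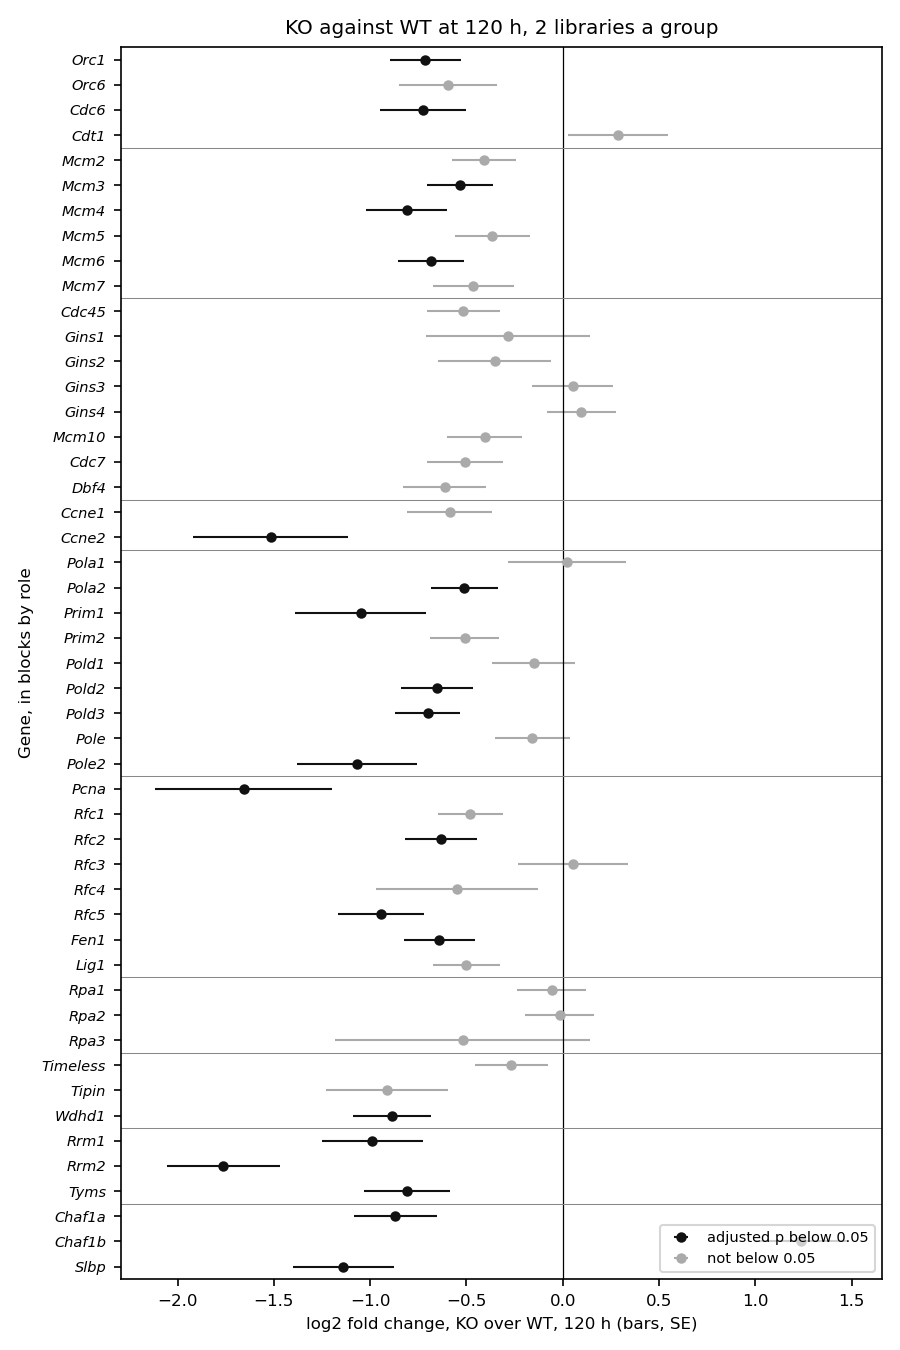
Log2 fold change of KO over WT at 120 h (x axis) with its standard error for each of the 49 genes (y axis, in blocks by role), black where the adjusted p was below 0.05. Of the 22 black points, 21 lie below 0 and Chaf1b lies at 1.24.

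Beside these 120 h differences, marker levels of other cell types also differed between the genotypes. The 8 Sertoli cell markers summed to 29.3 to 32.0 CPM in WT and 83.5 to 91.5 CPM in KO at 120 h, with all 8 fold changes above 0 and 1 of them called. The 6 peritubular and stromal markers summed to 111 to 112 CPM in WT and 371 to 376 CPM in KO, with 2 called higher. Of these 6 only Col1a1 was above 30.6 CPM in any library of the series, at up to 403 CPM, so the KO sums come mostly from this 1 gene. The 4 endothelial markers gave 8.22 to 15.1 CPM in WT and 20.4 to 26.6 CPM in KO, with 1 called higher. The 5 macrophage and leukocyte markers found gave 1.12 to 1.77 CPM and 2.99 to 5.83 CPM, and the 6 Leydig markers 5.85 to 6.94 CPM and 5.31 to 9.71 CPM, with none called. The 4 erythroid markers gave 1.39 to 3.49 CPM and 1.94 to 1.99 CPM, and the 5 spermatid markers 1.26 to 2.12 CPM and 1.94 to 4.15 CPM, with none called. The 7 germ cell markers summed to 2788 to 2824 CPM in WT and 3820 to 3931 CPM in KO, with 2 called higher. The part of these cells in the differences of replication genes was not tested.

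Averaged over the 7 times, 22 members were lower and 1 higher in KO (20.1% and 17.4% of all genes), with a median log2 fold change of -0.19. No member passed the test of genotype by time interaction, in which 0.108% of all genes were called. By that test 7 members and 9.76% of all genes had an unadjusted p under 0.05. The lowest members were Chaf1b (adjusted p = 0.126) and Rrm2 (adjusted p = 0.193), and DESeq2 called those 2 (adjusted p = 0.00793 and 0.0213). Chaf1b also passed in the fit with a replicate block in each genotype (adjusted p = 0.0264). Any change over time was called for 34 members in WT (37.3% of all genes) and 23 in KO (15.8% of all genes), and 15 in KO without replicate 1 at 0 h.

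**Figure D3:**
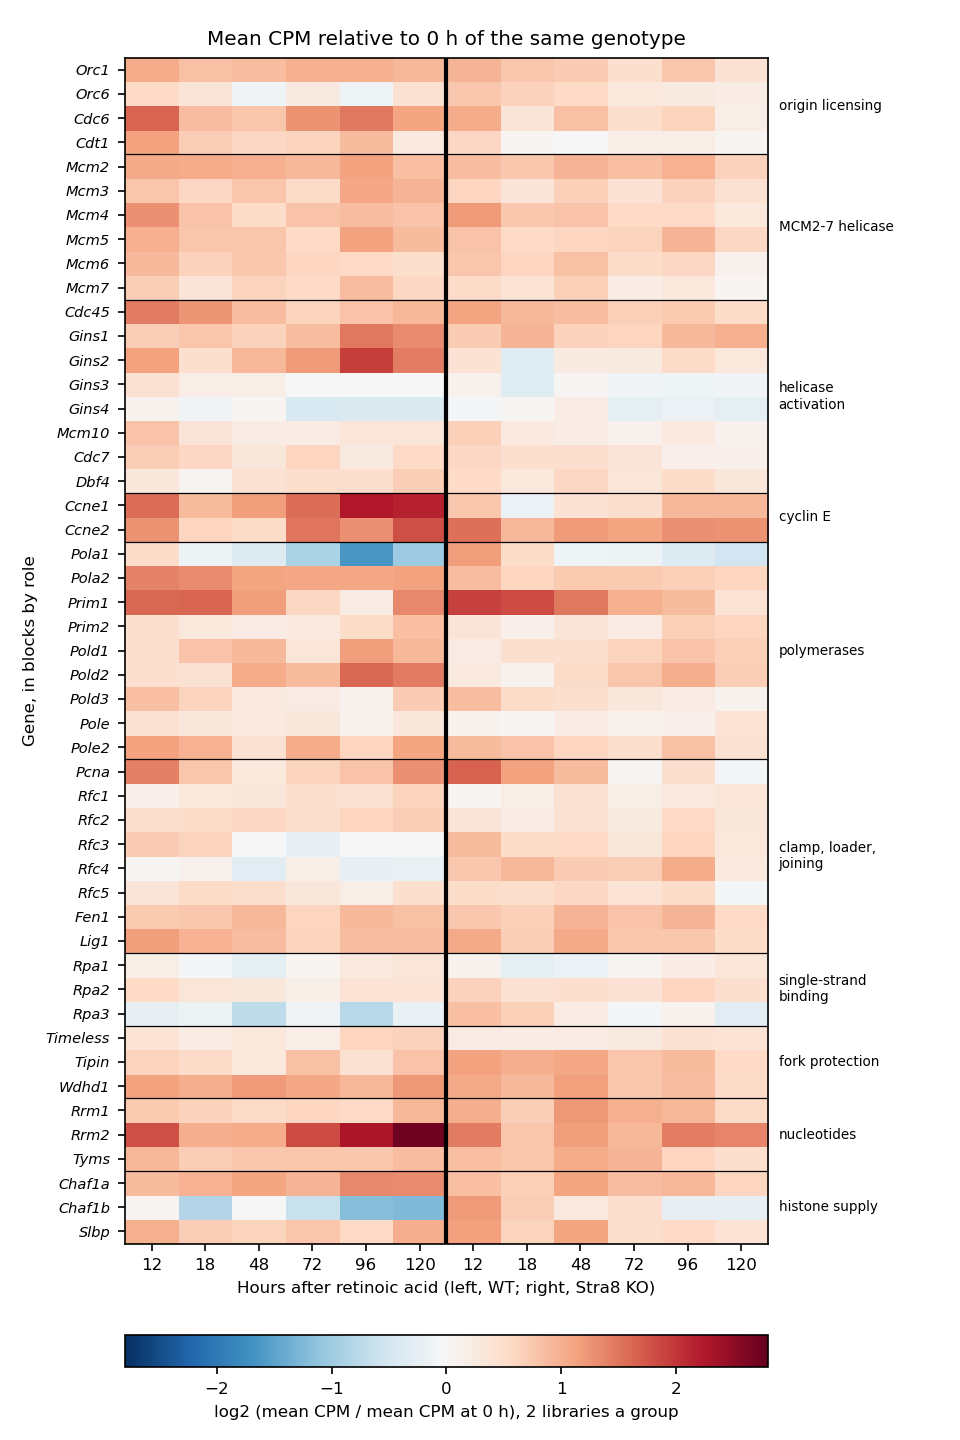
Log2 ratio of the mean CPM of each later group to the 0 h mean of the same genotype (colour) for the 49 genes (y axis, in blocks by role) by hours after retinoic acid (x axis), WT left of the line and KO right of it. Most cells are red in both genotypes, the darkest being Rrm2 in WT at 120 h, while Pola1 and Chaf1b turn blue in WT at late times.

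Among the 4 licensing genes, Orc1, Cdc6 and Cdt1 rose at 12 h in WT and Orc1, Orc6 and Cdc6 in KO. ORC1 is the largest subunit of the origin recognition complex, ORC6 the smallest, and CDC6 and CDT1 are the loaders of the MCM helicase. In WT, Cdc6 read 26.99 and 35.5 CPM (0 h), 101 and 91.6 (12 h), 62.8 and 50.5 (18 h), 59.7 and 46.8 (48 h), 82.6 and 67.5 (72 h), 100.4 and 74.1 (96 h), and 75.7 and 59.5 (120 h). All later WT libraries lay above both at 0 h, with the 12 h and 96 h means the highest and those at 18 and 48 h between them and 0 h. In KO, Cdc6 read 37.02 and 36.7 CPM (0 h), 76.8 and 75.8 (12 h), 43.1 and 51.96 (18 h), and 70.7 and 59.3 (48 h). From 72 h, Cdc6 read 48.1 and 55.6 (72 h), 49.05 and 64.6 (96 h), and 47.5 and 36.9 (120 h) in KO. Cdc6 rose at 12 h in WT (1.63 ± 0.22, adjusted p = 2.29e-05) and in KO (1.08 ± 0.22, adjusted p = 0.00269). It was lower in KO at 120 h (-0.73 ± 0.22, adjusted p = 0.0308), where the pairs do not overlap. In WT, Orc1 read 49.97 and 54.4 CPM (0 h), 106 and 107 (12 h), 97.5 and 87.5 (18 h), 99.2 and 91.7 (48 h), 104 and 105 (72 h), 117 and 91.96 (96 h), and 96.3 and 102 (120 h). In KO, Orc1 read 44.9 and 55.8 CPM (0 h), 97.97 and 97.5 (12 h), 79.6 and 89.9 (18 h), and 84.7 and 80.8 (48 h). From 72 h, Orc1 read 67.2 and 72.3 (72 h), 70.8 and 99.7 (96 h), and 54.1 and 78.6 (120 h) in KO. Orc1 stayed close to its 12 h level in WT, and at 72 h and 120 h both KO libraries were below both WT libraries. It rose at 12 h in WT (1.04 ± 0.18) and in KO (1.00 ± 0.18) and was lower in KO at 120 h (-0.71 ± 0.19, adjusted p = 0.0118). An antisense neighbour, Gm12743, shares 10.8% of the exon length of Orc1, so the assignment of reads there is uncertain. Cdt1 rose at 12 h in WT (1.13 ± 0.25, adjusted p = 0.00425) and had a log2 fold change of 0.61 ± 0.25 in KO, where it began at 88.9 and 75.4 CPM against 48.4 and 59.0 in WT. Orc6 passed in KO at 12 h only by a small margin (0.80 ± 0.25, adjusted p = 0.0442) and had 0.55 ± 0.24 in WT.

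All 6 genes of the MCM2-7 helicase, the ring that unwinds DNA at the fork, rose at 12 h in WT, and all but Mcm7 did so in KO. In WT, Mcm2 read 281 and 294 CPM (0 h), 584 and 611 (12 h), 624 and 551 (18 h), 605 and 539 (48 h), 576 and 500.1 (72 h), 609.6 and 652 (96 h), and 557 and 468 (120 h). In KO, Mcm2 read 269.6 and 264 CPM (0 h), 486 and 486 (12 h), 426 and 469.8 (18 h), and 519 and 512 (48 h). From 72 h, Mcm2 read 449 and 513 (72 h), 415 and 639 (96 h), and 356 and 474 (120 h) in KO. Every library with retinoic acid was above both 0 h libraries in each genotype. After 12 h the group means of Mcm2 ran from 513 to 631 CPM in WT and from 415 to 527 CPM in KO. The KO libraries at 96 h, 415 and 639 CPM, were far apart. Mcm2 rose at 12 h by 1.07 ± 0.17 in WT and 0.90 ± 0.17 in KO, and was also called in KO at 72 h (0.85 ± 0.17) and 96 h (0.95 ± 0.17). In WT, Mcm4 read 129 and 158 CPM (0 h), 353 and 339.7 (12 h), 269 and 229 (18 h), 237 and 172 (48 h), 261 and 239.6 (72 h), 317 and 202 (96 h), and 251 and 244 (120 h). In KO, Mcm4 read 128 and 122 CPM (0 h), 295 and 278 (12 h), 207 and 217 (18 h), and 238 and 197 (48 h). From 72 h, Mcm4 read 179 and 189 (72 h), 154 and 211 (96 h), and 129.7 and 176 (120 h) in KO. Mcm4 rose at 12 h in both genotypes (1.28 ± 0.21 in WT and 1.23 ± 0.21 in KO), and by 120 h the KO pair, 130 and 176 CPM, was below the WT pair, 251 and 244 (-0.81 ± 0.21, adjusted p = 0.0116). In WT, Mcm6 read 254 and 298 CPM (0 h), 481 and 555 (12 h), 472 and 394 (18 h), 522 and 407 (48 h), 405 and 433 (72 h), 452 and 356 (96 h), and 407 and 366 (120 h). In KO, Mcm6 read 240.4 and 232 CPM (0 h), 421 and 384 (12 h), 382 and 338 (18 h), and 426 and 404 (48 h). From 72 h, Mcm6 read 318 and 352 (72 h), 332 and 379 (96 h), and 233 and 283 (120 h) in KO. At 12 h Mcm6 rose by 0.92 ± 0.17 in WT and 0.80 ± 0.17 in KO. At 120 h one KO library was back within the 0 h range, and the gene was lower in KO than in WT (-0.69 ± 0.17, adjusted p = 0.00925), as was Mcm3 (-0.53 ± 0.17, adjusted p = 0.0391). Mcm2, Mcm5 and Mcm7 did not pass at 120 h, with -0.41 ± 0.17, -0.37 ± 0.20 and -0.46 ± 0.21. In WT the highest group mean was at 12 h for Mcm4 and Mcm6 and at 96 h for Mcm2, Mcm3, Mcm5 and Mcm7. Other genes share 12.6% of the exon length of Mcm7.

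Of the 8 genes that turn the loaded ring into an active helicase, Cdc45, Gins2, Mcm10 and Cdc7 rose at 12 h in WT, and Cdc45 and Mcm10 in KO. CDC45 and the 4 GINS proteins are parts of the active helicase, MCM10 acts at its firing, and CDC7 with its partner DBF4 is the kinase that triggers it. In WT, Cdc45 read 70.9 and 81.7 CPM (0 h), 200.3 and 217 (12 h), 175 and 187 (18 h), 144 and 135 (48 h), 126 and 109 (72 h), 131 and 135 (96 h), and 137 and 155 (120 h). In KO, Cdc45 read 81.6 and 74.2 CPM (0 h), 175 and 162 (12 h), 142 and 151 (18 h), and 145 and 137 (48 h). From 72 h, Cdc45 read 107 and 141 (72 h), 101 and 158 (96 h), and 90.5 and 133 (120 h) in KO. The 12 h pair was the highest in each genotype, and every later library was above both at 0 h. The rise at 12 h was 1.46 ± 0.19 in WT and 1.14 ± 0.19 in KO. In WT, Gins2 read 14.5 and 14.6 CPM (0 h), 34.6 and 29.01 (12 h), 19.98 and 19.9 (18 h), 28.3 and 27.3 (48 h), 37.1 and 29.7 (72 h), 43.95 and 67.6 (96 h), and 51.2 and 27.03 (120 h). In KO, Gins2 read 31.1 and 19.6 CPM (0 h), 29.1 and 38.6 (12 h), 16.8 and 23.5 (18 h), and 28.8 and 32.03 (48 h). From 72 h, Gins2 read 28.1 and 32.5 (72 h), 34.3 and 39.4 (96 h), and 36.9 and 25.2 (120 h) in KO. In WT all later libraries were above 0 h, with the highest at 96 h (log2 fold change 1.93 ± 0.29), whereas KO began higher and its later groups overlapped its 0 h pair or stood only just above it. The KO change at 12 h was 0.42 ± 0.29, adjusted p = 0.429. Gse1, on the opposite strand, shares 67.3% of the exon length of Gins2, so the assignment of reads between them is uncertain. In WT, Mcm10 read 70.7 and 72.9 CPM (0 h), 135 and 116 (12 h), 100.1 and 85.02 (18 h), 89.6 and 76.6 (48 h), 95.7 and 72.3 (72 h), 102 and 80.8 (96 h), and 106 and 75.6 (120 h). In KO, Mcm10 read 71.1 and 63.4 CPM (0 h), 108 and 106 (12 h), 82.6 and 80.7 (18 h), and 83.95 and 70.95 (48 h). From 72 h, Mcm10 read 74.6 and 71.4 (72 h), 69.4 and 92.00 (96 h), and 72.4 and 73.8 (120 h) in KO. The 12 h pair stood out in both genotypes (0.82 ± 0.19 in WT and 0.70 ± 0.19 in KO), and the mean over times was lower in KO (-0.21 ± 0.07, adjusted p = 0.026). Gins3 and Gins4 passed in no comparison with 0 h, and their fold changes at 120 h in WT were 0.06 ± 0.20 and -0.35 ± 0.17. Gins1 rose in WT at 96 and 120 h (1.40 ± 0.42 at 120 h), but its replicate 2 was above replicate 1 at 7 of 7 WT times, by a median of 0.88 on the log2 scale. Cdc7 and Dbf4 rose at 120 h in WT (0.62 ± 0.19 and 0.74 ± 0.21).

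Both E cyclins, the partners of CDK2 at the start of S phase, rose at 12 h in both genotypes. In WT, Ccne1 read 11.2 and 13.8 CPM (0 h), 34.8 and 38.8 (12 h), 21.5 and 24.7 (18 h), 27.3 and 28.6 (48 h), 42.4 and 31.2 (72 h), 59.1 and 58.6 (96 h), and 59.3 and 52.1 (120 h). It stood at its highest at 96 and 120 h, where no library was below 52.1 CPM. In KO, Ccne1 read 22.4 and 18.9 CPM (0 h), 28.8 and 40.8 (12 h), 16.9 and 20.2 (18 h), and 27.4 and 27.2 (48 h). From 72 h, Ccne1 read 30.8 and 26.9 (72 h), 34.4 and 42.7 (96 h), and 42.3 and 34.95 (120 h) in KO. The WT log2 fold change was 1.57 ± 0.22 at 12 h and 2.21 ± 0.23, adjusted p = 8.91e-07 at 120 h. In KO it was 0.76 ± 0.22, adjusted p = 0.0322 at 12 h, from a 0 h pair above that of WT. The KO pair lay below the WT pair at 96 and 120 h, but the 120 h comparison did not pass (-0.59 ± 0.22, adjusted p = 0.0735). In WT, Ccne2 read 14.5 and 21.9 CPM (0 h), 40.5 and 46.4 (12 h), 28.2 and 27.5 (18 h), 24.03 and 28.1 (48 h), 52.1 and 50.9 (72 h), 61.7 and 27.3 (96 h), and 64.7 and 62.8 (120 h). In KO, Ccne2 read 7.36 and 15.4 CPM (0 h), 31.7 and 34.4 (12 h), 24.8 and 18.6 (18 h), and 30.7 and 21.3 (48 h). From 72 h, Ccne2 read 24.2 and 25.04 (72 h), 23.7 and 31.8 (96 h), and 14.3 and 39.8 (120 h) in KO. Ccne2 was lower in KO at 120 h (-1.52 ± 0.40, adjusted p = 0.014) and over all times (-0.69 ± 0.15), although its KO libraries at 120 h differed by more than 2-fold. The opposite-strand gene Ints8 shares 17.4% of the exon length of Ccne2.

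The 9 polymerase genes did not move as a block. POLA1, POLA2, PRIM1 and PRIM2 form the polymerase alpha-primase complex that starts each new strand, POLD1 to POLD3 belong to the lagging-strand polymerase delta, and POLE and POLE2 to the leading-strand polymerase epsilon. In WT, Pola2 read 45.6 and 52.7 CPM (0 h), 127 and 129 (12 h), 124 and 122 (18 h), 108 and 104 (48 h), 102 and 108 (72 h), 101 and 108 (96 h), and 118 and 97.3 (120 h). In KO, Pola2 read 53.6 and 54.6 CPM (0 h), 107 and 89.8 (12 h), 74.6 and 89.2 (18 h), and 101 and 80.2 (48 h). From 72 h, Pola2 read 79.9 and 100.1 (72 h), 75.4 and 97.5 (96 h), and 70.4 and 93.2 (120 h) in KO. In WT, Pola2 was highest at 12 h and all libraries from 48 h on were below the 12 h pair and above the 0 h pair, with a rise of 1.39 ± 0.17 at 12 h and 1.18 ± 0.17 at 120 h. The KO pair was below the WT pair at all 6 times after 0 h and above it at 0 h, and the gene was lower in KO over all times (-0.31 ± 0.06, adjusted p = 0.000782). In WT, Prim1 read 20.6 and 37.5 CPM (0 h), 71.6 and 107 (12 h), 81.4 and 97.5 (18 h), 60.3 and 69.6 (48 h), 36.1 and 50.4 (72 h), 39.2 and 27.6 (96 h), and 71.5 and 77.1 (120 h). In KO, Prim1 read 22.8 and 40.2 CPM (0 h), 130.3 and 105 (12 h), 114 and 109 (18 h), and 98.3 and 77.8 (48 h). From 72 h, Prim1 read 51.9 and 74.2 (72 h), 44.2 and 72.3 (96 h), and 28.7 and 53.4 (120 h) in KO. Prim1 rose strongly at 12 h in both (1.63 ± 0.32 in WT and 1.96 ± 0.33 in KO), and its libraries at 96 h were lower than at 12 h. At 120 h it stood at 71.5 and 77.1 CPM in WT against 28.7 and 53.4 CPM in KO. The KO pair was above the WT pair at 18, 48, 72 and 96 h and below it at 120 h (-1.05 ± 0.34, adjusted p = 0.0404), and none of the 4 differences above it passed.

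Pola1, the catalytic subunit of the same complex, is described because it went the other way, and was chosen after its values were seen. In WT, Pola1 read 62.8 and 60.1 CPM (0 h), 101 and 75.5 (12 h), 60.1 and 51.2 (18 h), 54.8 and 40.7 (48 h), 33.9 and 32.7 (72 h), 24.4 and 15.1 (96 h), and 39.7 and 21.3 (120 h). In KO, Pola1 read 33.1 and 57.05 CPM (0 h), 103 and 101 (12 h), 65.7 and 62.5 (18 h), and 46.7 and 36.2 (48 h). From 72 h, Pola1 read 37.8 and 43.6 (72 h), 26.3 and 43.8 (96 h), and 37.2 and 25.2 (120 h) in KO. After 12 h its WT level dropped below 0 h, and it was lower at 96 h (-1.62 ± 0.30, adjusted p = 0.000337) and 120 h (-0.96 ± 0.29, adjusted p = 0.0149). Pola1 rose in KO at 12 h (1.23 ± 0.29, adjusted p = 0.00962) and at 120 h had a KO over WT log2 fold change of 0.02 ± 0.31. Replicate 2 of WT was below replicate 1 at every time, by a median of 0.41 on the log2 scale. The annotated exons of Pola1 share no base with another gene. In WT, Pold2 read 36.9 and 43.6 CPM (0 h), 50.3 and 60.3 (12 h), 48.4 and 59.8 (18 h), 81.7 and 83.9 (48 h), 73.6 and 75.7 (72 h), 101 and 144 (96 h), and 119 and 101 (120 h). In KO, Pold2 read 48.7 and 44.6 CPM (0 h), 58.3 and 54.8 (12 h), 49.4 and 51.1 (18 h), and 70.8 and 61.7 (48 h). From 72 h, Pold2 read 74.01 and 85.3 (72 h), 80.5 and 108 (96 h), and 68.4 and 82.5 (120 h) in KO. Unlike the genes that were highest at 12 h, Pold2 was higher at 48 h and later, with 0.47 ± 0.18 at 12 h and 1.50 ± 0.18, adjusted p = 4.93e-06 at 120 h in WT. It was lower in KO at 120 h (-0.65 ± 0.19). Its catalytic partner Pold1 had 0.47 ± 0.21 at 12 h and rose by 0.98 ± 0.22 at 120 h. In WT, Pold3 read 65.9 and 65.8 CPM (0 h), 117 and 119 (12 h), 104 and 100.4 (18 h), 78.2 and 79.8 (48 h), 76.97 and 77.1 (72 h), 79.2 and 62.2 (96 h), and 106 and 110.1 (120 h). In KO, Pold3 read 59.7 and 71.98 CPM (0 h), 126 and 112 (12 h), 93.2 and 93.8 (18 h), and 94.98 and 85.6 (48 h). From 72 h, Pold3 read 85.7 and 78.8 (72 h), 64.5 and 89.8 (96 h), and 70.7 and 70.9 (120 h) in KO. Pold3 was at its highest at 12 h in both, and at 120 h the WT pair, 106 and 110 CPM, was above the KO pair, 70.7 and 70.9 (-0.70 ± 0.17, adjusted p = 0.00693). Of the remaining polymerase genes, Pole2 rose at 12 h (1.14 ± 0.28 in WT), Prim2 at 120 h (0.90 ± 0.18 in WT), and Pole passed against 0 h at no time in either genotype.

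Among the genes of the clamp, its loader and strand joining, Pcna, Fen1 and Lig1 rose at 12 h in both genotypes and Rfc3 in KO. PCNA is the ring that holds the polymerases on DNA, RFC1 to RFC5 form the complex that opens it, and FEN1 and LIG1 trim and seal the Okazaki fragments. In WT, Lig1 read 185 and 231 CPM (0 h), 464 and 467 (12 h), 405 and 417 (18 h), 344 and 408 (48 h), 331 and 309 (72 h), 330.4 and 429 (96 h), and 382 and 381 (120 h). In KO, Lig1 read 200.1 and 208 CPM (0 h), 450.1 and 399 (12 h), 333 and 329 (18 h), and 434 and 413 (48 h). From 72 h, Lig1 read 333 and 364 (72 h), 276 and 411 (96 h), and 254 and 326 (120 h) in KO. Every later Lig1 library was above both 0 h libraries of its genotype, and the rise at 12 h was 1.17 ± 0.17 in WT and 1.09 ± 0.17 in KO. In WT, Pcna read 65.3 and 95.7 CPM (0 h), 179 and 251 (12 h), 135 and 141 (18 h), 109.9 and 87.4 (48 h), 145 and 102 (72 h), 179.6 and 99.8 (96 h), and 207 and 185 (120 h). In KO, Pcna read 52.8 and 79.6 CPM (0 h), 226 and 191 (12 h), 138 and 150.2 (18 h), and 137 and 107 (48 h). From 72 h, Pcna read 96.5 and 38.9 (72 h), 137 and 47.1 (96 h), and 76.7 and 51.5 (120 h) in KO. The 12 h mean was the highest in both genotypes, though in WT the 12 h pair overlapped the pairs at 96 and 120 h. At 120 h the KO pair was below the WT pair (-1.66 ± 0.46, adjusted p = 0.0226). The KO replicates disagreed at 72 and 96 h, where the shallow library was far below the other one, while the recovered columns gave 86.7, 110 and 86.5 CPM at 72, 96 and 120 h. A near-identical copy, Pcna-ps2, had up to 240 reads in a library, or 30.3 CPM, so reads could be split between them. In WT, Rfc2 read 53.6 and 70.1 CPM (0 h), 79.5 and 93.3 (12 h), 82.1 and 94.7 (18 h), 89.5 and 94.6 (48 h), 89.8 and 85.3 (72 h), 92.95 and 96.1 (96 h), and 103 and 96.03 (120 h). In KO, Rfc2 read 57.6 and 52.1 CPM (0 h), 73.5 and 66.9 (12 h), 64.7 and 62.3 (18 h), and 80.7 and 65.9 (48 h). From 72 h, Rfc2 read 63.1 and 68.6 (72 h), 61.9 and 98.6 (96 h), and 67.1 and 69.9 (120 h) in KO. In WT, Rfc2 had 0.49 ± 0.18 at 12 h, which did not pass, and 0.73 ± 0.18 at 120 h, which did. It was lower in KO over all times (-0.38 ± 0.07, adjusted p = 0.00018), with both KO libraries below both WT libraries at 5 of 7 times. The gene Lat2, on the opposite strand, shares 15.1% of the exon length of Rfc2. Rfc5 was lower in KO at 120 h by -0.94 ± 0.22 and stayed so without replicate 1 of KO. The opposite-strand gene Wsb2 shares 10.7% of the exon length of Rfc5. Fen1 rose by 0.74 ± 0.18 at 12 h in WT, but 84.2% of its exon length is shared with other genes, chiefly Gm10143 on the opposite strand. Rfc1 rose at 120 h in WT (0.67 ± 0.17), Rfc3 at 12 h in KO (0.93 ± 0.27), and Rfc4 in no comparison with 0 h (-0.15 ± 0.40 at 120 h in WT). Eif4a2, on the opposite strand, shares 12.7% of the exon length of Rfc4.

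The 3 RPA genes, whose products coat single-stranded DNA, passed few tests. In WT, Rpa2 read 186 and 231 CPM (0 h), 275 and 336 (12 h), 248 and 278 (18 h), 268 and 255 (48 h), 216 and 249.9 (72 h), 244 and 298 (96 h), and 244 and 298 (120 h). In KO, Rpa2 read 209.6 and 206 CPM (0 h), 343 and 307 (12 h), 310.3 and 252 (18 h), and 312 and 268 (48 h). From 72 h, Rpa2 read 256 and 291 (72 h), 315 and 319 (96 h), and 247 and 332 (120 h) in KO. Rpa2 rose at 12 h in WT (0.56 ± 0.18, adjusted p = 0.0434) and in KO (0.68 ± 0.18, adjusted p = 0.0186). All 6 helicase genes had a larger fold change than Rpa2 at 12 h in WT, whereas in KO Mcm3 (0.64 ± 0.17) and Mcm7 (0.56 ± 0.21) had a smaller one, and these differences were not tested. In WT, Rpa1 read 182 and 186 CPM (0 h), 197 and 214 (12 h), 182 and 173 (18 h), 167 and 140.2 (48 h), 217 and 163 (72 h), 220.3 and 227 (96 h), and 264 and 198 (120 h). In KO, Rpa1 read 195 and 179 CPM (0 h), 191 and 209.7 (12 h), 142 and 167 (18 h), and 162 and 169.7 (48 h). From 72 h, Rpa1 read 186 and 206 (72 h), 173 and 258 (96 h), and 215 and 262 (120 h) in KO. The Rpa1 groups largely overlapped, and no comparison with 0 h passed. In WT, Rpa3 read 8.23 and 19.98 CPM (0 h), 7.30 and 16.9 (12 h), 6.86 and 18.9 (18 h), 4.45 and 12.8 (48 h), 10.2 and 16.1 (72 h), 9.98 and 6.61 (96 h), and 7.57 and 17.2 (120 h). In KO, Rpa3 read 6.84 and 13.5 CPM (0 h), 19.8 and 16.5 (12 h), 18.3 and 13.8 (18 h), and 12.8 and 10.5 (48 h). From 72 h, Rpa3 read 8.68 and 11.1 (72 h), 16.3 and 5.48 (96 h), and 10.8 and 5.83 (120 h) in KO. Rpa3 had few reads, down to 5 in the KO library at 96 h, and replicate 2 was above replicate 1 at 6 of 7 WT times by a median of 1.21 on the log2 scale, so the time course was not resolved at this depth.

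Of the fork protection genes, Wdhd1 rose at every time in WT, Timeless at 96 and 120 h and Tipin at 120 h. WDHD1 links the helicase to polymerase alpha, and TIMELESS and TIPIN form a complex that stabilises the fork. In WT, Wdhd1 read 148 and 229.6 CPM (0 h), 377 and 444 (12 h), 409.9 and 358 (18 h), 466 and 397 (48 h), 372 and 426 (72 h), 377 and 343 (96 h), and 437 and 434 (120 h). In KO, Wdhd1 read 164 and 188 CPM (0 h), 403 and 334 (12 h), 314 and 343 (18 h), and 411 and 375 (48 h). From 72 h, Wdhd1 read 289 and 303 (72 h), 249.5 and 387 (96 h), and 222 and 285 (120 h) in KO. The WT level stayed up after 12 h, whereas the KO libraries at 120 h, 222 and 285 CPM, were below those at 12 h, 403 and 334 CPM. The rise at 12 h was 1.12 ± 0.20 in WT and 1.10 ± 0.20 in KO, and the 120 h level was lower in KO (-0.89 ± 0.20, adjusted p = 0.00554). Tipin rose in KO at 12 h (1.19 ± 0.31) and had 0.63 ± 0.30 in WT, and its replicates differed widely in both genotypes. In WT, Tipin read 37.7 and 53.9 CPM (0 h) and 54.7 and 86.3 (12 h). In KO, Tipin read 24.7 and 37.7 CPM (0 h) and 80.6 and 56.5 (12 h). Timeless had -0.27 ± 0.19 for KO over WT at 120 h.

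**Figure D4:**
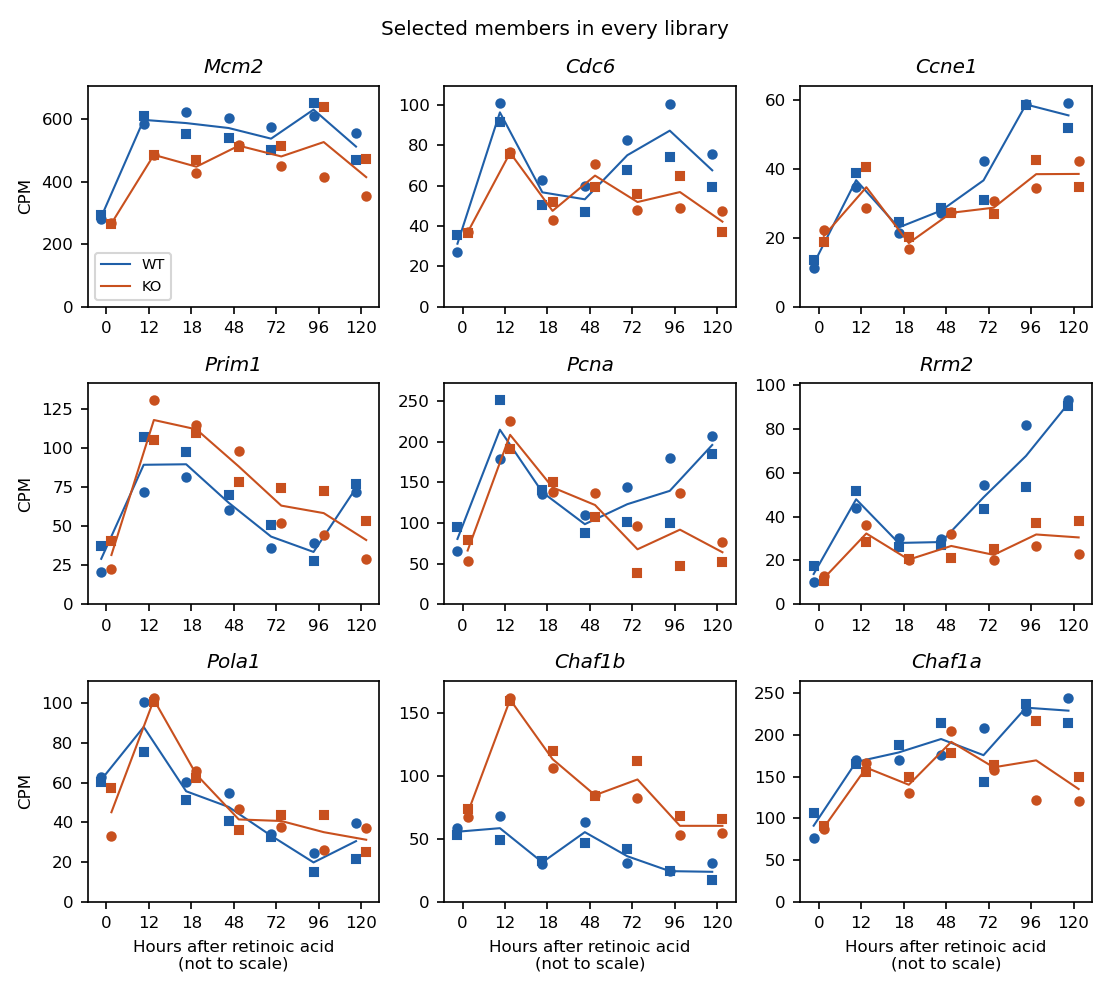
CPM (y axis, from 0) of 9 genes in every library by hours after retinoic acid (x axis, not to scale), circles for replicate 1, squares for replicate 2 and lines through the group means, WT blue and KO orange. Rrm2 climbs to 92.9 and 90.2 CPM in WT at 120 h and stays at or below 37.9 CPM in KO, and every Chaf1b library of KO lies above the WT pair of its time.

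All 3 nucleotide genes were lower in KO than in WT at 120 h. RRM1 and RRM2 are the subunits of ribonucleotide reductase, RRM2 being the one made for S phase, and TYMS makes thymidylate. In WT, Rrm2 read 10.1 and 17.5 CPM (0 h), 44.00 and 51.7 (12 h), 30.02 and 25.9 (18 h), 29.7 and 27.01 (48 h), 54.3 and 43.2 (72 h), 81.7 and 53.5 (96 h), and 92.9 and 90.2 (120 h). It rose at 12 h, was lower at 18 and 48 h and climbed to its highest level at 120 h, where both libraries were above all others of the series. In KO, Rrm2 read 12.9 and 10.8 CPM (0 h), 36.2 and 28.4 (12 h), 20.1 and 20.6 (18 h), and 31.9 and 21.3 (48 h). From 72 h, Rrm2 read 20.01 and 25.04 (72 h), 26.4 and 37.2 (96 h), and 23.1 and 37.9 (120 h) in KO. In KO no library was above 37.9 CPM, the level of replicate 2 at 120 h. The log2 fold change against 0 h in WT was 1.81 ± 0.28 at 12 h and 2.79 ± 0.29, adjusted p = 1.04e-06 at 120 h, the highest of the 49 genes, and 1.25 ± 0.31, adjusted p = 0.0498 at 120 h in KO. Rrm2 was lower in KO at 72 h (-1.21 ± 0.30), 96 h (-1.19 ± 0.29) and 120 h (-1.76 ± 0.29, adjusted p = 0.000477), and the recovered columns gave 19.9, 42.5 and 40.8 CPM. In WT, Tyms read 23.1 and 27.8 CPM (0 h), 50.2 and 47.4 (12 h), 45.6 and 36.7 (18 h), 42.98 and 42.6 (48 h), 40.1 and 47.01 (72 h), 43.8 and 41.7 (96 h), and 57.9 and 35.2 (120 h). In KO, Tyms read 19.9 and 20.3 CPM (0 h), 34.8 and 37.5 (12 h), 33.2 and 35.95 (18 h), and 45.5 and 37.1 (48 h). From 72 h, Tyms read 40.6 and 37.1 (72 h), 32.3 and 28.5 (96 h), and 29.2 and 26.2 (120 h) in KO. Tyms rose at 12 h by 0.95 ± 0.21 in WT and 0.88 ± 0.22 in KO, and at 120 h the KO pair was below the WT pair (-0.81 ± 0.22, adjusted p = 0.0165). Rrm1 rose in WT at 120 h (0.98 ± 0.26) and was lower in KO then (-0.99 ± 0.26).

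Chaf1b was the 1 member called higher in KO than in WT. It codes for the middle subunit of CAF-1, the chaperone that places new histones behind the fork, and CHAF1A is the large subunit. In WT, Chaf1b read 58.6 and 52.9 CPM (0 h), 67.98 and 49.1 (12 h), 29.9 and 32.8 (18 h), 63.7 and 47.1 (48 h), 30.6 and 41.8 (72 h), 24.3 and 24.3 (96 h), and 30.6 and 16.9 (120 h). After 48 h these libraries lay below 0 h, and the gene was lower at 18 h (-0.86 ± 0.23, adjusted p = 0.0134), 96 h (-1.19 ± 0.23) and 120 h (-1.18 ± 0.23, adjusted p = 0.000519). In KO, Chaf1b read 67.7 and 73.4 CPM (0 h), 162 and 159.5 (12 h), 107 and 120.4 (18 h), and 85.3 and 84.4 (48 h). From 72 h, Chaf1b read 82.5 and 112 (72 h), 52.9 and 67.9 (96 h), and 54.8 and 66.02 (120 h) in KO. Chaf1b rose in KO at 12 h (1.22 ± 0.23, adjusted p = 0.00121), and at 96 and 120 h its KO libraries overlapped the 0 h pair or lay below it. The KO pair was above the WT pair at 7 of 7 times, and the difference passed at 12 h (1.45 ± 0.23), 18 h (1.93 ± 0.23, adjusted p = 2.35e-05), 72 h (1.34 ± 0.23), 96 h (1.24 ± 0.24) and 120 h (1.24 ± 0.24). Without replicate 2 of WT at 12 h the 12 h call was lost. Over all times the difference was 1.16 ± 0.09, adjusted p = 1.73e-09. The recovered KO columns gave 108, 79.5 and 46.6 CPM at 72, 96 and 120 h. The annotated exons of Chaf1b share no base with another gene. Its partner Chaf1a behaved otherwise, from 75.9 and 106 CPM at 0 h to 245 and 214 CPM at 120 h in WT (1.38 ± 0.21) and 121 and 150 CPM at 120 h in KO (-0.87 ± 0.21, adjusted p = 0.00847), though Ubxn6, on the opposite strand, shares 52.5% of its exon length. Slbp, whose product binds histone mRNA in S phase, rose at 12 h (1.02 ± 0.25 in WT and 1.19 ± 0.26 in KO) and was lower in KO at 120 h (-1.14 ± 0.26, adjusted p = 0.00554).

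Other genes of the pathway, taken as lists by role but with earlier results of these data known, were measured in the same fit. At 12 h in WT, 4 of 10 other origin and licensing genes, 4 of 10 other helicases and activators, 6 of 13 other clamp and fork genes and 4 of 9 other chromatin replication genes were higher, and 0 of 8 other polymerase subunits and 0 of 8 other nucleotide enzymes were, where 5.36% of all genes were higher. Of the same lists, 1 of the helicases and activators and 1 polymerase subunit were lower (5.53% of all genes). In KO the higher genes at 12 h were 4, 4, 6 and 5 of the first 4 lists, 0 of the polymerase subunits and 3 of the nucleotide enzymes (4.13% of all genes), and 1 polymerase subunit was lower (4.44%). At 120 h, KO was lower than WT in 1 of 10, 6 of 10, 6 of 13 and 6 of 9 of these lists and in 1 of 8 polymerase subunits and 2 of 8 nucleotide enzymes (6.88% of all genes), and higher in none (8.54%). The topoisomerase Top2a rose at 12 h in WT (1.23 ± 0.20) and was lower in KO at 120 h (-1.31 ± 0.20, adjusted p = 0.000217). Ticrr, the treslin that helps load CDC45, rose in WT by 1.25 ± 0.23 at 12 h and 2.00 ± 0.24 at 120 h. Dscc1, of the alternative clamp loader, rose by 1.77 ± 0.31 and was lower in KO at 120 h by -1.59 ± 0.33. Skp2, of the ubiquitin ligase that acts on CDT1, rose at 12 h (1.16 ± 0.22) and was lower at 120 h than at 0 h (-0.60 ± 0.22, adjusted p = 0.0411) in WT. Of 15 genes of mitosis, 2 were higher in WT at 12 h (5.36% of all genes) and 13 at 120 h (14.2%), and 8 were lower in KO than in WT at 120 h (6.88%). Their summed level at 120 h was 3859 to 6265 CPM in WT and 2475 to 2763 CPM in KO. Prc1, a mitotic spindle protein, had 0.61 ± 0.21 at 12 h and rose by 1.85 ± 0.21 at 120 h.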

How the data were processed

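Reads of 28 polyA RNA libraries made for an Ion Proton sequencer were analysed. Per the submitters' processing notes, Bowtie, TopHat and Cufflinks were used with build mm10. No source used here names a read counter or says whether it used strand, so genes with antisense neighbours are uncertain. Per the file headers and row names, the 7 WT replicate 1 columns also hold summary rows of the kind htseq-count writes, left out here: 27.1 to 33.1% of all their reads as no_feature, 14.3 to 16.2% as alignment_not_unique and 0.681 to 0.785% as ambiguous, the name that program gives to reads set aside for overlapping more than 1 gene. No such values were used for the other 21 libraries. The authors deposited whole-number counts per gene symbol in 2 tables, each with 1 library of every group. They also deposited 2 tables named as FPKM whose values were CPM, judging from the numbers: rescaled counts gave 25 of the 28 columns to within 0.001 CPM. WT columns matched the count table of their own number and KO columns the other table, so KO numbering is uncertain. In the 3 columns that matched none, 100% of the values at low read numbers were whole multiples of 1 read (within 0.1 read), with the total fitted from the column itself. These columns gave recovered reads, used only as an alternative. Of 43280 features, 27 with date-like names were left out.

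One edgeR fit (version 4.0.16, R 4.3.3) of 14 group means covered all 28 libraries. It used TMM factors, filterByExpr by group and robust quasi-likelihood F tests. P-values were adjusted by Benjamini-Hochberg over 17519 genes in each of 28 comparisons, with a threshold of 0.05. The fit was tested on simulated data. With 2 libraries a group, all groups share 1 estimate of the spread. CPM was computed per library total. The members and all lists were chosen with earlier results of these data known. All members are named. Values in every library are given for those with the smallest p of their role for any change over time in WT or KO, for the interaction or for the mean KO against WT, or called against the direction of their role, at most 4 per role. Up to 3 genes of each other list could be named, by the smallest p for any change in WT.

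Same-numbered WT libraries deviated together (correlations of deviations from group means 0.26 to 0.52 over 21 pairs of times), so the numbers pair the WT libraries. In KO the correlations ran from -0.14 to 0.57. Alternatives were DESeq2 1.42.0, RLE scaling, no expression filter, the replicate block, the shallow KO libraries left out or replaced, and each of the 28 libraries left out. Exon overlaps are from GENCODE on GRCm38, and promoters from RefSeq on GRCm38.p6.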

Additional observations from a re-analysis of the deposited data

Results flagged for a closer look

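In 3 cases every WT library moved one way from 0 h and every KO library the other way. For Chaf1b at 18 h the log2 ratio of mean CPM to 0 h was -0.83 in WT and 0.69 in KO, a difference of 1.52. For Chaf1b at 72 h it was -0.62 in WT and 0.46 in KO, a difference of 1.09. For Gins3 at 18 h it was 0.18 in WT and -0.34 in KO, a difference of -0.51. The difference at these single times was not tested. In the edgeR test of interaction over all times the adjusted p was 0.126 for Chaf1b and 0.987 for Gins3. The replicate spread of Gins3 in KO at 0 h, 32.0 and 25.5 CPM, was of the size of its change.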

How the results depend on the processing

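Among the members picked by p or by direction within their role, no called change reversed its direction under any alternative run. The other members were not compared in this way. DESeq2 moved the member counts to 9 for KO 72 h, 2 for KO 120 h (both against 0 h), 1, 2, 2 and 2 for WT 18 against 12, 48 against 18, 96 against 72 and 120 against 96 h, 4 for KO vs WT at 96 h and 2 for the interaction. With no filter on low counts they were 5 for KO 72 h, 1 for each of those 4 WT steps and 4 for the interaction. RLE scaling moved KO 120 h from 1 to 0. With the shallow KO libraries left out, KO against 0 h gave 0 at 72, 96 and 120 h, and KO vs WT gave 1 at 72 h and 4 at 96 h. With recovered reads KO against 0 h gave 8, 15 and 2. At 120 h KO vs WT ranged from 18 to 30 members over these alternatives, against 22.

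With a common replicate block, KO against 0 h gave 7 members at 72 h and 2 at 120 h, and the WT steps 2 for 48 against 18 h and 1 for 96 against 72 h. With a block in each genotype, KO gave 8, 16 and 3 at 72, 96 and 120 h, the WT steps 2, 2, 2 and 1 for 18 against 12, 48 against 18, 96 against 72 and 120 against 96 h, and the interaction 1. No other count moved by over 1.5 times under the block. Same-numbered KO libraries deviated together among 72, 96 and 120 h, where replicate 2 is the shallow one (correlations 0.51 to 0.57). For the other pairs of KO times the correlations ran from -0.14 to 0.18, so KO numbers do not pair the libraries over the whole series.

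Leaving out 1 library at a time gave 12 to 28, 4 to 22, 6 to 21, 6 to 23, 16 to 28 and 20 to 38 members for WT at 12 to 120 h against 0 h, and 12 to 31, 3 to 20, 2 to 19, 0 to 4, 0 to 10 and 0 to 1 for KO. The WT steps gave 0 to 1, 0 to 2, 0 to 0, 0 to 3 and 0 to 2. KO vs WT gave 0 to 1 at 12 h, 0 to 4 at 72 h, 0 to 4 at 96 h and 3 to 29 at 120 h, and 20 to 28 over all times. Any change gave 23 to 35 in WT and 15 to 26 in KO, and the interaction 0 to 1. The cause of these shifts was not tested. A group left with 1 library was assumed to vary like the others. The share of all genes called was not counted in these fits, nor under DESeq2, so member counts there have no such share beside them. Among 24 named members, calls that were lost numbered 421 over the 28 fits that left out 1 library (4843 kept), 33 without the filter, 18 without the shallow libraries, 4 under RLE and 2 with recovered reads.

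In the shallow libraries 3 counts, the floor for a count of 0, are 2.78 to 3.29 CPM, which limits Rpa3, Gins1 and Pole2 most. Such floors cover counting error only.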
